A study of Homo sapiens with 10 samples.

Results

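The genes described here are 10 members of the Notch pathway, namely the receptors *NOTCH1*, *NOTCH2*, *NOTCH3* and *NOTCH4*, the ligands *DLL4*, *JAG1* and *JAG2*, and the target repressors *HES1*, *HEY1* and *HEY2*. They were found by symbol in a table of 27945 gene symbols, and the RefSeq transcript with the highest mean was used for each. RNA-Seq was carried out on EA.hy926, an established human line made by fusing umbilical vein endothelial cells with the A549 lung carcinoma line. CRISPR/Cas9 had been used to delete the promoter region of *VEGFA-LNC* or *VEGFC-LNC*, long noncoding RNAs transcribed near *VEGFA* and *VEGFC*. The libraries came from 3 homozygous clones for each deletion and from 2 controls for each deletion. The controls were given the guide RNAs but no Cas9 and were cloned by the same procedure, so that all 10 libraries share the cell line and the cloning. Clones and controls are named by the replicate number of their label. Nothing in the labels says whether the controls of a set were separate cultures, and p-values then measure only the spread between these libraries.

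Notch is a receptor that signals between touching cells. A Delta-like or Jagged ligand on one cell pulls on the receptor of its neighbour, ADAM proteases and gamma-secretase cut the receptor, and the freed intracellular domain joins the DNA-binding protein *RBPJ* and a Mastermind coactivator in the nucleus. HES and HEY genes are the classic direct targets and encode repressors that bind DNA. In the endothelium, *VEGFA* induces *DLL4* in the leading tip cell of a sprout, *DLL4* activates *NOTCH1* in the following stalk cells, and *JAG1* counteracts *DLL4*. *NOTCH4* is found mainly in endothelial cells, *NOTCH3* in the mural cells around them, and *HEY2* is a marker of arterial identity.

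The letters that *RBPJ* binds best, GTGGGAA, were searched on both strands of the RefSeq promoter windows of build GRCh38.p14, each with 250 bases before and 50 bases after the start of the gene. Windows were at hand for 9 of the 10 genes, *HEY1* being the exception. The letters stand in 6.25% of all 35116 windows, and among the Notch genes only in those of *HES1* and *HEY2*. Of the 7 other HES and HEY genes, *HES4*, *HES5* and *HEYL* hold them, which makes 3 of 7. The *HES1* and *HEY2* sequences before the start are shown since these repressors differ in the table, *HES1* being read in every library and *HEY2* hardly at all in the *VEGFC-LNC* set. The search letters or their reverse complement are in capitals. The *HES1* stretch is chr3:194135898-194136147 on the plus strand, and that of *HEY2* is chr6:125749382-125749631, also on the plus strand.
HES1: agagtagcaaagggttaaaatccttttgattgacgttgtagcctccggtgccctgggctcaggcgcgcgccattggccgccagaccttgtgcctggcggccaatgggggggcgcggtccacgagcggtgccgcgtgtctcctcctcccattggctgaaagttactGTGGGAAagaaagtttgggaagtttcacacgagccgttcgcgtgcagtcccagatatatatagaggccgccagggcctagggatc
HEY2: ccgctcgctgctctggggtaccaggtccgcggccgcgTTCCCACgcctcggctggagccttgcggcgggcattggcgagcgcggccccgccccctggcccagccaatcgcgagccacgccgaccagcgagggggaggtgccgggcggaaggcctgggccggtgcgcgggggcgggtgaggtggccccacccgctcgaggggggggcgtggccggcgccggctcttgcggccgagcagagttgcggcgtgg
In *HES1* the match begins at base -85, counted back from the start of the gene. *HEY2* holds 1 match on the opposite strand, beginning at base -213, and 1 on the gene's own strand that begins at base -4 and runs across the start.
HEY2 at the start: agttgcggcGTGGGAAagagccgct
The same letters are thus present before a gene that was read throughout and before one that was near 0 in the *VEGFC-LNC* set. A match describes the sequence and does not show that *RBPJ* was bound in these cells.

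Values are FPKM, in which reads are divided by transcript length and by library size. Differences in the make-up of the libraries are not removed by this. With median-of-ratios scaling, the median log2 FC of all tested genes between the control sets moved from -0.11 to -0.004. Between 6743972 and 24197619 reads stood behind a library, the smallest being clone 3 of the *VEGFC-LNC* deletion. A gene was tested when it had at least 1 cpm (FPKM multiplied by the length in kilobases) in at least 2 libraries, which 9 of the 10 Notch genes and 13333 genes in all did. Differences were fitted with limma on log2(FPKM + 0.1), a scale that understates the change of low genes, and a gene was called when the FDR over all tested genes was under 0.05 and the fold change (FC) at least 1.5. All 10 endothelial markers looked for, *PECAM1*, *CDH5*, *TIE1* and *ERG* among them, passed the filter. Some of them were low. *KDR* had 0.036 to 0.164 FPKM in the 4 controls and 0.046 and 0.038 FPKM in clone 1 of the *VEGFA-LNC* and *VEGFC-LNC* deletions. In clones 2 and 3 it had 0.545 to 1.39 FPKM. *VWF* had 0.772 to 1.21 FPKM in the controls. The summed level of the 10 markers was lowest in clone 1 of the *VEGFA-LNC* deletion at 187 FPKM. It was highest in clone 2 of that deletion at 782 FPKM, while the 4 controls lay between 313 and 347 FPKM. *EMCN*, unlike the sum, was lower in all clones than in their controls, being 4.83 and 5.06 FPKM in the *VEGFA-LNC* controls against 0.05, 1.54 and 0.17 FPKM in clones 1, 2 and 3 (log2 FC = -3.64, FDR = 0.0609 by limma, not called), and 6.39 and 6.74 FPKM in the *VEGFC-LNC* controls against 0.022, 0.121 and 0.184 FPKM in the clones (-5.08, FDR = 0.0467 by limma, called). In bulk RNA, fewer cells expressing a gene and less RNA per cell cannot be told apart. Of the fibroblast and mural list, *COL1A2* was below the filter, and *RGS5* and *ACTA2* gave most of the sum of 15.05 to 154 FPKM. Of the leukocyte genes *LYZ* passed the filter, with 3.73 and 3.26 FPKM in the *VEGFA-LNC* controls and 0.42 and 0.68 FPKM in the *VEGFC-LNC* controls (log2 FC = -2.49, FDR = 0.118 by limma), and its part in the differences between the control sets was not tested. The leukocyte genes *PTPRC*, *CD14* and *CD3E* were below the filter, as were the epithelial *EPCAM*, *CDH1* and *KRT19*, whereas the keratins *KRT7*, *KRT8* and *KRT18* passed it. The epithelial list summed to 1311 FPKM in clone 1 and 487 FPKM in clone 2 of the *VEGFA-LNC* deletion, the reverse order of the endothelial sum. In the *VEGFC-LNC* set it was 439 to 866 FPKM in the clones against 898 and 911 FPKM in the controls. There *KRT8* and *KRT18* were below both controls in all clones (log2 FC = -1.25 and -1.28, FDR = 0.163 and 0.202 by limma), while *KRT7* lay on both sides. The part of these genes in the Notch values was not tested.

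Among the receptors, *NOTCH2* and *NOTCH1* were by far the most abundant, *NOTCH4* followed, and *NOTCH3* was hardly read. The means over the 10 libraries were 34.05 FPKM for *NOTCH2*, 28.8 FPKM for *NOTCH1*, 5.33 FPKM for *NOTCH4* and 0.0279 FPKM for *NOTCH3*. The ranges of *NOTCH1* and *NOTCH2* overlapped, with *NOTCH2* above *NOTCH1* in 7 of 10 libraries.

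*NOTCH1*, the receptor with the best known part in sprouting, lies at chr9:139388885-139440238 on the minus strand of hg19. Its level was 28.3 and 29.3 FPKM in the *VEGFA-LNC* controls, and 23.9, 39.1 and 35.5 FPKM in *VEGFA-LNC* clones 1, 2 and 3. In the *VEGFC-LNC* set it was 26.4 and 24.7 FPKM in the controls and 21.9, 23.8 and 35.1 FPKM in clones 1, 2 and 3. Clones thus lay on both sides of their controls in each set. The log2 FC was 0.16 (95% confidence interval, -0.41 to 0.72; FDR = 0.78 by limma) upon *VEGFA-LNC* deletion and 0.04 (-0.52 to 0.61; FDR = 0.935 by limma) upon *VEGFC-LNC* deletion.

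*NOTCH2*, a broadly expressed receptor, lies on the minus strand of chromosome 1, and the transcript used, chr1:120477736-120612317, is a short form of 4287 bases. Its first exons are nearly identical to the *NOTCH2NL* copies on the same chromosome, and how reads shared by the copies were assigned is not given in the sources used here, which leaves its level uncertain. The *VEGFA-LNC* controls had 40.5 and 42.2 FPKM, against 52.4, 26.9 and 29.9 FPKM in clones 1, 2 and 3. The *VEGFC-LNC* controls had 32.5 and 32.8 FPKM, against 26.9, 33.3 and 23.1 FPKM in clones 1, 2 and 3. Again the clones lay on both sides of their controls. For *NOTCH2* the log2 FC was -0.25 in both sets (-0.86 to 0.36 and -0.86 to 0.37; FDR = 0.667 and 0.626 by limma). The full-length transcript of 11430 bases gave levels within the range of 24.5 to 50.03 FPKM, and the short form stood at 0.923 to 1.10 times the full-length one.

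Within a library, a share of the receptor sum does not depend on the size of the library. *NOTCH2* made up 56.7% and 56.8% of the summed receptor FPKM in the *VEGFA-LNC* controls, and 66.2%, 37.7% and 42.3% in clones 1, 2 and 3. In the *VEGFC-LNC* set the shares were 51.0% and 52.8% in the controls and 48.0%, 49.7% and 34.8% in the clones. All 3 *VEGFC-LNC* clones thus lay below both of their controls, while the *VEGFA-LNC* clones lay on both sides. The mean share of the clones minus that of the controls was -8.004 percentage points in the *VEGFA-LNC* set (p = 0.4, two-sided exact permutation test, 3 clones against 2 controls) and -7.72 percentage points in the *VEGFC-LNC* set (p = 0.3, same exact permutation test), where the smallest possible p is 0.1. *NOTCH1* was above *NOTCH2* in clones 2 and 3 of the *VEGFA-LNC* deletion and in clone 3 of the *VEGFC-LNC* deletion, with 1.46, 1.19 and 1.52 times the *NOTCH2* level. In the other 7 libraries it stood at 0.456 to 0.813 times the *NOTCH2* level.

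**Figure D1:**
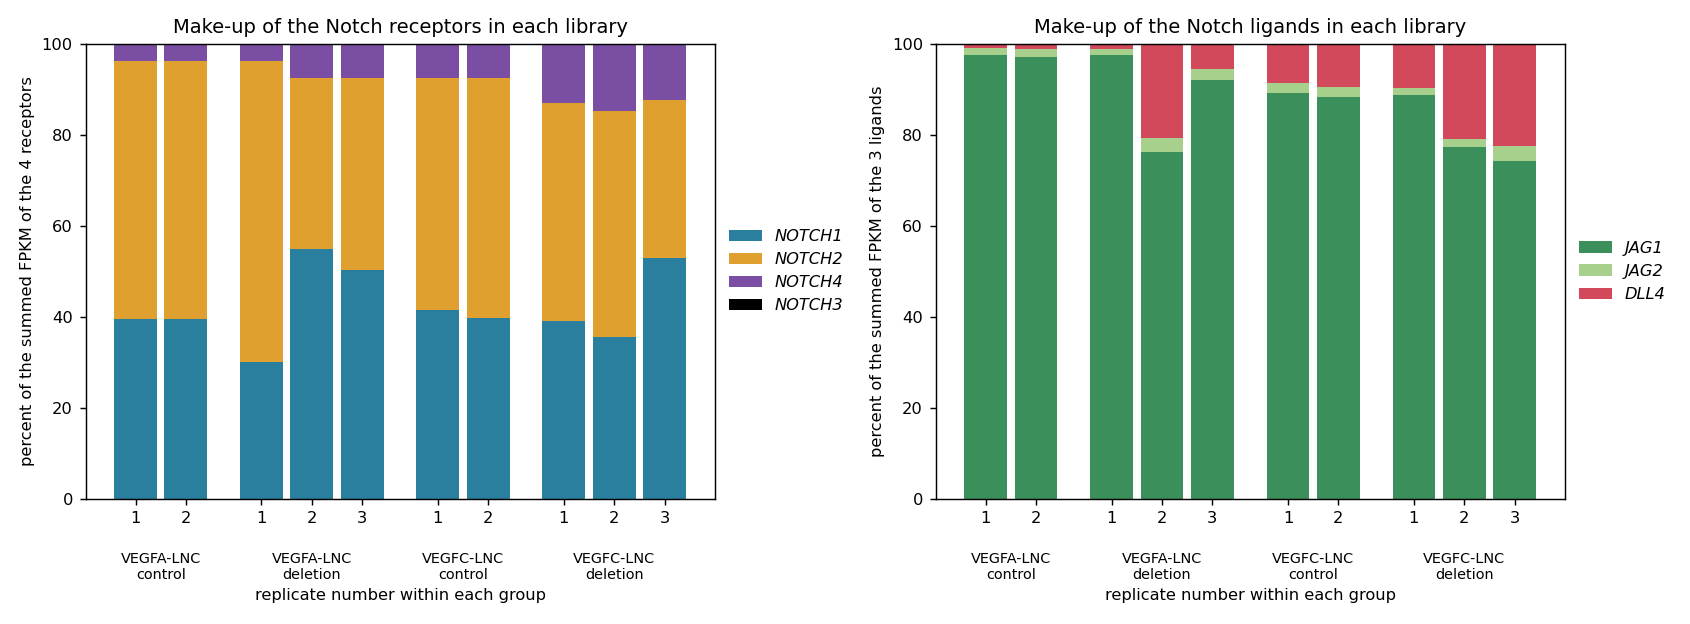
Percent of the summed FPKM taken by each receptor (left) and each ligand (right) in every library, with replicate numbers on the x axis under each group. *NOTCH2* holds 66.2% of the receptor sum in clone 1 of the *VEGFA-LNC* deletion and 34.8% in clone 3 of the *VEGFC-LNC* deletion, *NOTCH3* is too low to be seen, and *JAG1* holds between 74.3% and 97.7% of the ligand sum.

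*NOTCH4*, the receptor found mainly in endothelial cells, was higher in every clone than in both controls of its set. It lies at chr6:32162620-32191844 on the minus strand, 11.5 Mb from *VEGFA*. The *VEGFA-LNC* controls had 2.58 and 2.76 FPKM and clones 1, 2 and 3 had 2.90, 5.29 and 5.24 FPKM. The *VEGFC-LNC* controls had 4.72 and 4.62 FPKM and clones 1, 2 and 3 had 7.28, 9.83 and 8.09 FPKM. Clone 1 of the *VEGFA-LNC* deletion stood just above its controls, and the other 5 clones were well clear of theirs. The log2 FC was 0.68 ± 0.26 (SE; 0.08 to 1.27) upon *VEGFA-LNC* deletion, with an FDR of 0.199 by limma. Upon *VEGFC-LNC* deletion it was 0.82 ± 0.26 (SE; 0.23 to 1.42), with an FDR of 0.172 by limma, so that neither was called. The paper, which tested counts by edgeR, names *NOTCH4* among the differentially expressed genes upon *VEGFC-LNC* deletion. The reason for the different call was not tested. The summed endothelial markers were also above both controls in all clones but clone 1 of the *VEGFA-LNC* deletion. They were 356, 595 and 624 FPKM in the *VEGFC-LNC* clones against 347 and 346 FPKM in their controls. In the *VEGFA-LNC* clones they were 187, 782 and 448 FPKM against 313 and 322 FPKM. The markers did not all follow the sum. In clone 1 of the *VEGFC-LNC* deletion *PECAM1*, *ERG*, *VWF*, *TEK* and *EMCN* were below both controls, while *CDH5*, *TIE1*, *ROBO4* and *ESAM* were above. In clone 3 of the *VEGFA-LNC* deletion *TEK* and *EMCN* were below. The part of these markers in the result was not tested. *NOTCH4* was higher in the *VEGFC-LNC* controls than in the *VEGFA-LNC* controls by a log2 FC of 0.79 ± 0.29 (SE; FDR = 0.102 by limma). The reads of the 7 copies of *NOTCH4* on the alternative haplotypes of hg19 are summed in its row. Within 5 Mb of *NOTCH4*, 182 tested genes had median log2 FCs of 0.02 and -0.12 upon the deletions of *VEGFA-LNC* and *VEGFC-LNC*.

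*NOTCH3*, at chr19:15270444-15311792 on the minus strand, had between 1 and 11 reads in a library and 41 reads in all. Its level was between 0.007 and 0.072 FPKM, with the highest values, 0.072 and 0.061 FPKM, in the *VEGFA-LNC* controls. It did not pass the filter and was not compared between groups.

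Of the ligands, *JAG1* was the most abundant in all libraries, and *DLL4* was above *JAG2* in 7 of 10. The means over the 10 libraries were 34.6 FPKM for *JAG1*, 2.57 FPKM for *DLL4* and 0.73 FPKM for *JAG2*.

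*DLL4*, the ligand of tip cells, lies at chr15:41221531-41231258 on the plus strand and was the most variable ligand. It had 0.591 and 0.871 FPKM in the *VEGFA-LNC* controls and 0.553, 6.11 and 1.96 FPKM in clones 1, 2 and 3. In the *VEGFC-LNC* set it had 2.19 and 2.24 FPKM in the controls and 2.52, 4.48 and 4.18 FPKM in clones 1, 2 and 3. The *VEGFC-LNC* clones were all above their controls, whereas clone 1 of the *VEGFA-LNC* deletion was below both of its controls and clones 2 and 3 were above. The log2 FC was 1.31 ± 0.75 (SE; -0.40 to 3.02; FDR = 0.383 by limma) upon *VEGFA-LNC* deletion. Upon *VEGFC-LNC* deletion it was 0.68 ± 0.75 (SE; -1.03 to 2.39; FDR = 0.634 by limma). These wide intervals span both no change and several-fold changes. The summed endothelial markers moved with *DLL4* among the *VEGFA-LNC* clones, at 187, 782 and 448 FPKM in clones 1, 2 and 3, and their part in the result was not tested.

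*JAG1*, at chr20:10618332-10654694 on the minus strand, had its highest levels in the *VEGFA-LNC* controls, with 70.5 and 75.0 FPKM. The *VEGFA-LNC* clones 1, 2 and 3 had 48.9, 22.7 and 32.2 FPKM, and all of them lay below both controls. The *VEGFC-LNC* controls had 22.7 and 21.1 FPKM, and clones 1, 2 and 3 had 22.9, 16.6 and 13.8 FPKM, so that clone 1 was level with its controls and the other clones were below. The mean was 34.6 ± 13.3 FPKM (SD, n = 3) in the *VEGFA-LNC* clones against 72.8 ± 3.14 FPKM (SD, n = 2) in their controls. The log2 FC of -1.14 ± 0.31 (SE; -1.83 to -0.45) was the closest to the threshold among the Notch genes upon *VEGFA-LNC* deletion, with an FDR of 0.0854 by limma, and was not called. Upon *VEGFC-LNC* deletion the log2 FC was -0.33 ± 0.31 (SE; -1.02 to 0.36; FDR = 0.562 by limma). Within 5 Mb of *JAG1*, 17 tested genes had a median log2 FC of -0.25 upon *VEGFA-LNC* deletion and -0.23 between the control sets, and its part in the *JAG1* values was not tested.

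*JAG2*, at chr14:105607318-105635161 on the minus strand, is a further Jagged ligand and was low throughout. It had 1.15 and 1.36 FPKM in the *VEGFA-LNC* controls and 0.614, 0.915 and 0.772 FPKM in clones 1, 2 and 3. The *VEGFC-LNC* controls had 0.544 and 0.562 FPKM and the clones 0.369, 0.401 and 0.613 FPKM. As with *JAG1*, the *VEGFA-LNC* clones were all below their controls, and those of the *VEGFC-LNC* deletion lay on both sides. Its log2 FC was -0.66 ± 0.26 (SE; FDR = 0.206 by limma) upon *VEGFA-LNC* deletion and -0.24 ± 0.26 (SE; FDR = 0.617 by limma) upon *VEGFC-LNC* deletion.

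The balance of the ligands within a library followed from these levels. In the *VEGFA-LNC* controls *JAG1* stood at 119 and 86.1 times the level of *DLL4*, and in clones 1, 2 and 3 at 88.5, 3.71 and 16.4 times. The *VEGFC-LNC* controls had ratios of 10.3 and 9.42, and clones 1, 2 and 3 had 9.09, 3.72 and 3.31. *JAG1* thus remained above *DLL4* in 10 of 10 libraries, and all 3 *VEGFC-LNC* clones had a lower ratio than their controls.

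The target repressors were lower than the main receptors and differed among themselves. The means over the 10 libraries were 9.35 FPKM for *HES1*, 1.21 FPKM for *HEY1* and 0.27 FPKM for *HEY2*.

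*HES1*, at chr3:193853931-193856401 on the plus strand, encodes a repressor that also limits its own promoter. Its level was 9.01 and 10.3 FPKM in the *VEGFA-LNC* controls and 9.56 and 8.95 FPKM in the *VEGFC-LNC* controls. The *VEGFA-LNC* clones 1, 2 and 3 had 2.45, 12.3 and 5.69 FPKM, and the *VEGFC-LNC* clones had 12.1, 8.55 and 14.6 FPKM. The 4 controls were thus close to each other, while clones of both sets lay above and below their own controls. Clone 1 of the *VEGFA-LNC* deletion held the lowest *HES1* value of all libraries and also the lowest sum of endothelial markers, whose part in the result was not tested. The log2 FC was -0.78 ± 0.54 (SE; -2.001 to 0.44; FDR = 0.467 by limma) upon *VEGFA-LNC* deletion and 0.31 ± 0.54 (SE; -0.91 to 1.53; FDR = 0.77 by limma) upon *VEGFC-LNC* deletion.

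*HEY1*, at chr8:80676245-80680098 on the minus strand, encodes a related repressor and had the narrowest spread of the 3. It was 1.28 and 1.22 FPKM in the *VEGFA-LNC* controls and 0.794, 0.83 and 0.654 FPKM in clones 1, 2 and 3. It was 1.71 and 1.70 FPKM in the *VEGFC-LNC* controls and 1.44, 1.32 and 1.10 FPKM in clones 1, 2 and 3. The clones of both sets lay below both of their controls. For *HEY1* the log2 FC was -0.66 ± 0.19 (SE; -1.10 to -0.22; FDR = 0.109 by limma) upon *VEGFA-LNC* deletion. Upon *VEGFC-LNC* deletion it was -0.38 ± 0.19 (SE; -0.82 to 0.06; FDR = 0.316 by limma). Between 17 and 94 reads stood behind these values.

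*HEY2*, at chr6:126070732-126082415 on the plus strand, was read in the *VEGFA-LNC* set and hardly at all in the *VEGFC-LNC* set. The *VEGFA-LNC* controls had 0.712 and 0.598 FPKM, from 33 and 36 reads, and clones 1, 2 and 3 had 0.832, 0.122 and 0.367 FPKM, from 33, 6 and 17 reads. In the *VEGFC-LNC* set, clone 1 had 3 reads, control 2 had 1 read, and the other 3 libraries had 0. A count of 0 allows up to 3 reads, and these intervals cover counting error only. No fold change is given for the *VEGFC-LNC* deletion, since both of its groups were at or under that limit, and *HEY2* enters there and in the difference of effects only as a tested gene that was not called. The log2 FC upon *VEGFA-LNC* deletion was -0.71 ± 0.53 (SE; -1.92 to 0.49; FDR = 0.506 by limma), with clone 1 above both controls and clones 2 and 3 below.

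**Figure D2:**
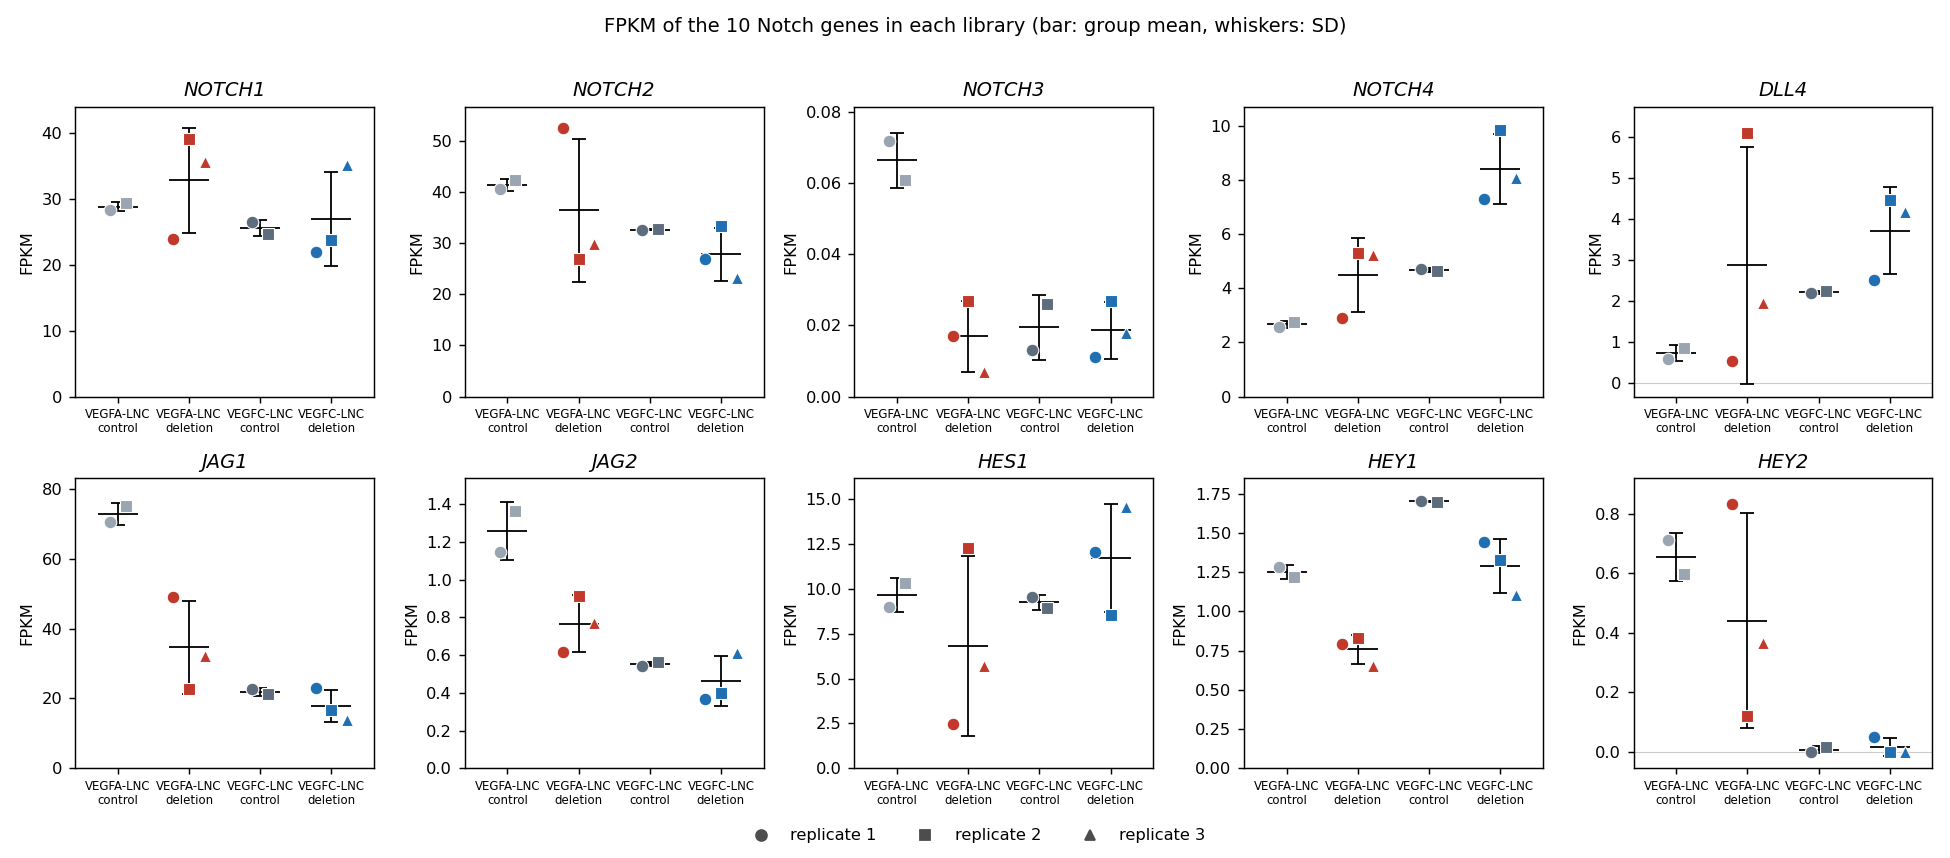
FPKM of the 10 genes (y axis, a scale of its own in each panel) in the 4 groups (x axis), where points are libraries shaped by replicate number, bars are group means and whiskers are SDs over 2 or 3 libraries. *NOTCH4* lies above and *HEY1* below the controls in all 6 clones, *JAG1* is highest in the *VEGFA-LNC* controls at 70.5 and 75.0 FPKM, and *HEY2* is near 0 in the *VEGFC-LNC* set.

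Across the comparisons, 0 of the 9 tested Notch genes were called by limma upon *VEGFA-LNC* deletion, where 2.75% of all tested genes were called (367 of 13333). Upon *VEGFC-LNC* deletion 0 of 9 were called, beside 0.473% of all genes (63 of 13333). There the paper, by edgeR, names *NOTCH4* among its differentially expressed genes. The limma voom fit on the recovered reads also called 0 of 9 upon each deletion, beside 4.13% and 0.42% of all genes. At an unadjusted p under 0.05 there were 4 of 9 upon *VEGFA-LNC* deletion, namely *JAG1*, *HEY1*, *NOTCH4* and *JAG2*, beside 19.8% of all tested genes. Upon *VEGFC-LNC* deletion there was 1 of 9, *NOTCH4*, beside 18.8% of all genes. The values of the 3 *VEGFA-LNC* clones were all above or all below both controls for 4 of 9 Notch genes, where 39% of all tested genes did, and the *VEGFC-LNC* clones for 3 of 9, where 47.8% did. These last counts are near the background in the *VEGFA-LNC* set and below it in the *VEGFC-LNC* set. Their median log2 FC was -0.66 upon *VEGFA-LNC* deletion (-0.45 without *HEY2*) and, over the 8 genes other than *HEY2*, -0.0998 upon *VEGFC-LNC* deletion, against medians of -0.06 and -0.09 over all tested genes. The effects of the 2 deletions were also compared with each other, and 0 of 9 differed by limma (1.46% of all genes did), 0 at an unadjusted p under 0.05 (18.5% of all genes) and 0 by voom (1.61%). The largest such difference was that of *HES1*, with a log2 value of -1.09 ± 0.76 (SE; FDR = 0.478 by limma).

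Calls appeared in 2 settings. Without clone 1 of the *VEGFA-LNC* deletion, *DLL4* (log2 FC = 2.13, FDR = 0.0266 by limma), *JAG1* (-1.42, FDR = 0.00988) and *NOTCH4* (0.96, FDR = 0.0108) were called upon *VEGFA-LNC* deletion, beside 13% of all tested genes. *NOTCH4* was then also called upon *VEGFC-LNC* deletion (0.82, FDR = 0.0182), beside 8.69% of all genes, since the groups share an estimate of the spread. The same-numbered clones of the deletions deviated from their group means together, and a fit with the clone number as a replicate block called *JAG1* (FDR = 0.00878), *HEY1* (FDR = 0.0354) and *NOTCH4* (FDR = 0.0351) upon *VEGFA-LNC* deletion and *NOTCH4* (FDR = 0.0177) upon *VEGFC-LNC* deletion. That fit called 10.3% and 12.8% of all genes. Over all settings the FDR ranged from 0.00878 to 0.828 for *JAG1*, from 0.0354 to 0.866 for *HEY1*, from 0.0108 to 0.89 for *NOTCH4* and from 0.0266 to 0.933 for *DLL4* upon *VEGFA-LNC* deletion, and from 0.0177 to 0.876 for *NOTCH4* upon *VEGFC-LNC* deletion.

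**Figure D3:**
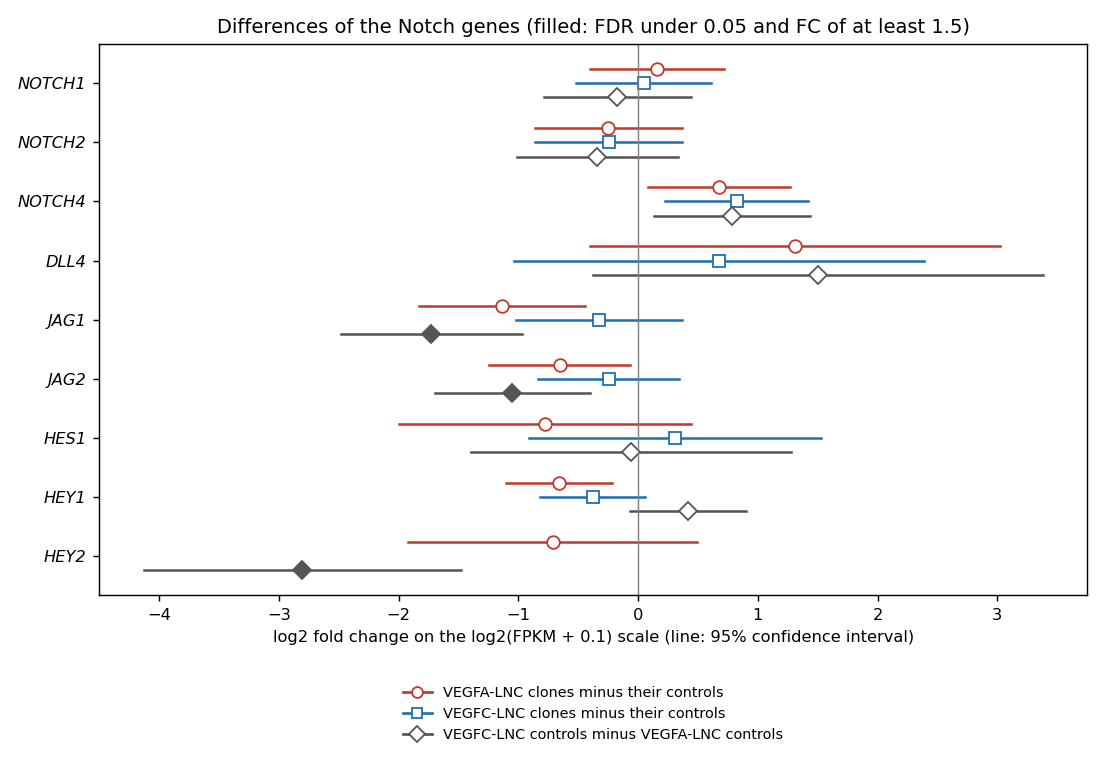
Log2 fold change (x axis) of the 9 tested Notch genes (y axis) for each deletion against its controls and for the *VEGFC-LNC* against the *VEGFA-LNC* controls, with 95% confidence intervals as lines and called genes as filled symbols. Only *JAG1*, *JAG2* and *HEY2* between the control sets are filled, at -1.73, -1.05 and -2.81, and *HEY2* upon *VEGFC-LNC* deletion is left out since both groups had 3 reads or fewer in a library.

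More genes were called between the control sets than upon either deletion. In the *VEGFC-LNC* controls the ligands *JAG1* and *JAG2* and the repressor *HEY2* were lower than in the *VEGFA-LNC* controls. This makes 3 of 9 tested Notch genes called, beside 12.7% of all genes (1690 of 13333). *HEY2* passed the filter only through libraries of the *VEGFA-LNC* set, where it was higher. Its call is therefore no independent addition to the count, and without *HEY2* 2 of 8 were called. *JAG1* stood at 21.9 ± 1.09 FPKM against 72.8 ± 3.14 FPKM (SD, n = 2 each), a log2 FC of -1.73 ± 0.33 (SE; FDR = 0.0161 by limma) or 3.31-fold. *JAG2* stood at 0.553 ± 0.013 FPKM against 1.26 ± 0.153 FPKM (SD, n = 2 each), a log2 FC of -1.05 ± 0.28 (SE; FDR = 0.0436 by limma). For *HEY2* the log2 FC was -2.81 ± 0.58 (SE; FDR = 0.0201 by limma), a value that depends on the 0.1 added to each FPKM. From the reads themselves, 69 in the *VEGFA-LNC* controls and 1 in the *VEGFC-LNC* controls, *HEY2* was 58.2 times higher in the former (exact 95% interval for counting error, 10.1 to 2330). *DLL4* was higher in the *VEGFC-LNC* controls by a log2 FC of 1.502 ± 0.83 (SE; FDR = 0.251 by limma), while *NOTCH1* (-0.17), *NOTCH2* (-0.34), *HES1* (-0.06) and *HEY1* (0.41) had FDRs of 0.22 to 0.954 by limma. The 3 calls rest on counting the 2 controls of a set as separate libraries. *JAG2* was also no longer called with 1 added to each FPKM, without a filter, with median-of-ratios scaling, or without *VEGFA-LNC* clone 3 or *VEGFC-LNC* clone 2. *NOTCH4* was called as well with the clone number as a block and without *VEGFA-LNC* clone 1, which makes 4 of 9 beside 25.6% and 23% of all genes, and with only the control sets fitted 5 of 9 were called beside 33%. With the controls of each set averaged, or with any of the 4 control libraries left out, 0 of 9 were called, and the FDR of *JAG1* ranged from 1.29e-05 to 0.487, that of *HEY2* from 0.00017 to 0.511 and that of *JAG2* from 0.00201 to 0.57 over all settings. The median log2 SD was 0.065 and 0.064 over the controls of the 2 sets, against 0.287 and 0.249 over the *VEGFA-LNC* and *VEGFC-LNC* clones. The guide RNAs and whatever else separates the sets cannot be told apart here. The sum of the fibroblast and mural list was also lower, at 59.9 and 60.8 FPKM in the *VEGFC-LNC* controls against 149 and 153 FPKM in the *VEGFA-LNC* controls, and its part in the result was not tested.

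The wider pathway was covered by 66 further genes, 52 of which passed the filter. Upon *VEGFA-LNC* deletion 1 of 52 was called, and upon *VEGFC-LNC* deletion 0 of 52 by limma, beside 2.75% and 0.473% of all genes. At an unadjusted p under 0.05 there were 12 and 8 of 52, beside 19.8% and 18.8% of all genes. The called gene was *CTBP2*, a corepressor that HES and HEY proteins and other factors recruit, at chr10:126676418-126848604 on the minus strand. The paper also lists *CTBP2* among the genes higher upon *VEGFA-LNC* deletion. The genes around *CTBP2* were not compared, so that a change shared by its neighbours was not tested. *CTBP2* had 13.5 and 13.3 FPKM in the *VEGFA-LNC* controls and 25.2, 23.7 and 20.3 FPKM in clones 1, 2 and 3, with all clones above both controls. Its log2 FC was 0.77 ± 0.13 (SE; FDR = 0.0206 by limma), and upon *VEGFC-LNC* deletion it was -0.04 ± 0.13 (SE; FDR = 0.878 by limma). The difference between these effects was 0.81 ± 0.18 (SE; FDR = 0.0633 by limma) and was not called. No pathway gene was called upon *VEGFA-LNC* deletion with all 4 controls together, with averaged controls, with only the 2 groups fitted, or without *VEGFA-LNC* clone 2 or any of the 4 control libraries, while 10 were called without *VEGFA-LNC* clone 1, 2 without *VEGFC-LNC* clone 1 and 7 with the clone number as a block, beside 13%, 3.41% and 10.3% of all genes.

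Apart from *CTBP2*, the largest differences in the pathway upon *VEGFA-LNC* deletion were those of *TLE4*, a Groucho-family corepressor (log2 FC = 1.11, FDR = 0.127 by limma), *DTX3L*, a Deltex-family ubiquitin ligase (1.03, FDR = 0.195), and *HES4*, a further repressor (1.02, FDR = 0.382). *TLE4* was 2.86 and 3.06 FPKM in the *VEGFA-LNC* controls and 4.67, 7.998 and 7.40 FPKM in the clones. *DTX3L* was 13.9 and 14.0 FPKM in the controls and 14.8, 42.3 and 37.1 FPKM in the clones, so that clone 1 was close to the controls. For these genes the clones lay above both controls, and none was called. Upon *VEGFC-LNC* deletion the largest differences were those of the repressor *HES2* (1.45, FDR = 0.254 by limma), the corepressor *TLE2* (1.15, FDR = 0.288) and the histone demethylase *KDM5A* (-0.82, FDR = 0.151). *HES2* was near the floor, with 0.05 and 0.087 FPKM in the *VEGFC-LNC* controls, from 2 and 9 reads. These values are below the 0.1 added to each FPKM. Clones 1, 2 and 3 had 0.252, 0.42 and 0.418 FPKM, from 24, 33 and 12 reads. *KDM5A* lies at chr12:389223-498621, and the genes around it were not compared either.

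By role, the 3 tested genes among the other HES and HEY repressors had a median of 0.55 (log2 FC) upon *VEGFA-LNC* deletion and -0.28 upon *VEGFC-LNC* deletion, with 0 called. The 9 genes of receptor cleavage, which encode ADAM proteases, the subunits of gamma-secretase and the protease *FURIN*, had medians of 0.28 and 0.26, and 8 of 9 were higher in the clones of each set on average, with 0 called. All clones lay on the same side of both controls for 2 of these 9 and 5 of these 9, beside 39% and 47.8% of all tested genes. Between the control sets 7 of 9 were lower in the *VEGFC-LNC* controls. The 5 genes of receptor glycosylation had medians of -0.18 and 0.34. The 10 tested ubiquitin ligases and endocytosis genes, which act on ligand and receptor, had medians of -0.19 and 0.05. The 9 nuclear activators had medians of -0.06 and -0.16, and the 13 nuclear corepressors of 0.19 and -0.22. The medians over all tested genes were -0.06 and -0.09. With lists of 3 to 13 genes, these medians are descriptions.

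The 14 pathway genes that did not pass the filter include several that Notch induces in arterial endothelium or elsewhere. *EFNB2*, *GJA4* and *GJA5*, which mark arteries, reached at most 0.048, 0 and 0.021 FPKM in any library. The feedback gene *NRARP* lay between 0.135 and 0.443 FPKM, the repressors *HEYL*, *HES6*, *HES5* and *HES3* reached at most 0.022, 0.382, 0 and 0 FPKM, and the ligands *DLL3*, *DLK1* and *DLK2* at most 0.028, 0 and 0.036 FPKM. The ligases *NEURL1*, *NEURL1B* and *DTX1* reached at most 0.053, 0.061 and 0.07 FPKM. The 4 listed targets and feedback genes outside the HES and HEY family were thus all below the filter, whereas *HES1* passed it. *NRARP* was still read in every library, with 4 to 16 reads.

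*VEGFA* and *VEGFC*, the genes beside the deleted regions, are given for orientation. *VEGFC* was called upon *VEGFC-LNC* deletion, with a log2 FC of -0.998 ± 0.12 (SE; FDR = 0.0145 by limma), and *VEGFA* was not called upon *VEGFA-LNC* deletion (-0.85 ± 0.27, SE; FDR = 0.13 by limma). *VEGFA*, the inducer of *DLL4* in sprouting vessels, was 9.62 to 10.2 FPKM in the *VEGFA-LNC* controls, where *DLL4* was lowest among the controls. In the *VEGFC-LNC* controls *VEGFA* was 3.23 to 3.84 FPKM. Upon *VEGFC-LNC* deletion *VEGFA* and *DLL4* were above both controls in all clones. There *VEGFA* had a log2 FC of 0.999 (FDR = 0.127 by limma, not called). Upon *VEGFA-LNC* deletion *VEGFA* was below both controls in all clones, and *DLL4* lay on both sides. Any link between these values was not tested. The *VEGFA* transcript used is 1 of 20. The paper reported higher *VEGFA* by RT-qPCR upon *VEGFA-LNC* deletion, averaged over more clones than were sequenced. In its RNA-Seq *VEGFA* was not among the differentially expressed genes. The reason for the opposite direction to the RT-qPCR was not tested.

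No Notch gene was called in a deletion by the limma fit used here. The genes most like a member were therefore taken for the gene with the widest range of log2 values in each role. These were *NOTCH4*, *DLL4* and *HEY2*. Likeness was measured as Pearson's r of log2(FPKM + 0.1) over the 10 libraries, which share the clones and control sets described above, and it is a description. For *NOTCH4* the closest genes were *HDAC6* (r = 0.963), *SH3RF3* (0.959) and *SPNS3* (0.955). For *DLL4* they were *RICTOR* (r = 0.987), *PALD1* (0.979) and *SLC16A13* (0.969). *PALD1*, which is known from endothelial cells, had 1.54, 21.7 and 7.39 FPKM in *VEGFA-LNC* clones 1, 2 and 3, in the same order as *DLL4*. For *HEY2* the closest were *CYLD* (r = 0.991), *SENP3* (0.986) and *RRP12* (0.984), each of them lower in all 5 libraries of the *VEGFC-LNC* set than in any library of the *VEGFA-LNC* set.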

How the data were processed

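RNA-Seq was measured in 10 libraries of EA.hy926 cells, mapped to 4 groups by their titles. FPKM values of 65572 RefSeq transcripts on hg19 were deposited in a single table, in which length and library size are already divided out. Its making is not described, and the submitters' processing notes name Trim Galore 0.4.4, STAR 2.5.4b and featureCounts. FPKM multiplied by length gave whole reads for 100% of the values checked (tolerance 0.15 reads), which gave the depth. A set of 42 rows without a symbol was left out. Values were fitted as log2(FPKM + 0.1) with limma 3.58.1 (lmFit, eBayes with trend) in R 4.3.3 in 1 design of 4 groups, with 6 residual degrees of freedom, after a filter of 1 cpm in at least 2 libraries, and FDRs follow Benjamini and Hochberg over all 13333 tested genes. The paper's methods name edgeR on counts. The limma fit on log2(FPKM + 0.1) took its place here, and limma voom on the recovered reads was an alternative setting. The procedure was tested on simulated data with changes planted in the *VEGFA-LNC* clones and the same spread in all groups. In the real data the controls varied less than the clones, so the simulation does not test the fit under unequal spread. Same-numbered clones and controls did not deviate together (correlations of deviations over genes, -0.04 to 0.05), whereas same-numbered clones of the deletions did (0.55, 0.41 and 0.22), for which a fit with the clone number as a block was added after seeing the data. The members and gene lists were chosen with earlier results of these data known. The text names all 10 members, and of the wider pathway the genes called, the 3 with the largest change in each deletion and those below the filter. Alternatives were another pseudocount (1), no filter, median-of-ratios scaling, voom on the recovered reads, other uses of the controls, replicate blocks, the second RefSeq row and leaving out each library. Proteins are not shown.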

Additional observations from a re-analysis of the deposited data

How the results depend on the processing

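Upon *VEGFA-LNC* deletion 0 of 9 Notch genes were called in all settings but the clone block added after seeing the data (3) and the fit without *VEGFA-LNC* clone 1 (0 to 3 over the fits that left out a library). Upon *VEGFC-LNC* deletion the same settings gave 1 (0 to 1). Between the control sets 3 became 0 with averaged controls, 2 with 1 added to each FPKM, no filter or median-of-ratios scaling, 4 with the clone block (*NOTCH4* added, 25.6% of all genes called), 5 with only those 2 groups fitted (33% of all genes called) and 0 to 4 with a library left out. A lone control left by such a fit is assumed to vary like the other groups. No Notch gene differed between the deletions in any setting. The replicate block over all libraries changed none of these counts (0, 0, 3 and 0). Upon *VEGFA-LNC* deletion the 1 called pathway gene became 0 with all 4 controls together, with averaged controls and with only the 2 groups fitted, 7 with the clone block and 0 to 10 with a library left out, the 10 being without *VEGFA-LNC* clone 1. Upon *VEGFC-LNC* deletion 0 became 2 with the clone block and 0 to 5. Over all genes, the 367 calls upon *VEGFA-LNC* deletion ranged from 0 (averaged controls) to 1732 (without clone 1), with 1376 under the clone block and 151 under the block over all libraries, and the 63 upon *VEGFC-LNC* deletion ranged from 1 to 1709, with 20 under the latter block. Median-of-ratios scaling changed the calls that were higher from 20 of 63 to 38 of 82 upon *VEGFC-LNC* deletion and from 389 of 1690 to 587 of 1493 between the control sets. The cause of these shifts was not tested. The *NOTCH2* share upon *VEGFC-LNC* deletion was lower by 10.1 percentage points against all 4 controls (p = 0.0286, exact permutation test, the smallest that 3 against 4 can give), and its sign was kept in each setting. That comparison adds the *VEGFA-LNC* controls, whose shares of 56.7% and 56.8% were above the 51.0% and 52.8% of the *VEGFC-LNC* controls. It thus mixes the difference between the control sets with the deletion. Against the *VEGFC-LNC* controls alone p was 0.3 (exact permutation test).

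Of 637 log2 FCs of Notch genes under the alternatives, 18 changed sign, all from values that had not been called. Many of the 637 could not change. Averaged controls, no filter, only the compared groups fitted and the clone block leave the log2 FC as it was. So does leaving out a library outside the comparison. The count is therefore no measure of how stable the directions are. Against all 4 controls *HEY2* became 0.69 upon *VEGFA-LNC* deletion and *NOTCH1* -0.042 upon *VEGFC-LNC* deletion, or -0.095 with the replicate block. Between the control sets *HES1* became 0.044 with median-of-ratios scaling, which moved the median of all genes from -0.11 to -0.004. The difference of effects of *NOTCH2* became 0.0056 with voom and 0.054 with the second RefSeq row. With a library left out, the range was -0.16 to 0.18 for *NOTCH1* upon *VEGFC-LNC* deletion and -0.16 to 0.037 for *HES1* between the control sets. For the difference of effects it was -0.029 to 0.33 for *NOTCH1*, -0.30 to 0.19 for *NOTCH2*, -0.29 to 0.13 for *NOTCH4* and -0.18 to 1.45 for *DLL4*. Depth limits *NOTCH3*, *HEY2*, *HEY1* and *JAG2* most, with 1 to 11, 0 to 36, 17 to 94 and 24 to 179 reads in a library.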
